A study of Mus musculus with 6 samples.

Results

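Genes of the lysosome, its proteases, sugar and lipid hydrolases, membrane glycoproteins and proton pump, were examined in TC-1/A9 tumour cells grown with IFNγ and in the same cells left untreated. The list named 36 genes, taken as the probes whose gene symbol in the array platform's annotation is one of those names, with the brightest probe standing for each gene. Of these, 29 were measured, among 8170 named genes tested in all. Ctsd, Ctsh, Ctsl, Ctss, Gla, Lipa and Tcfeb (7 genes) had no probe named here and were not analysed, so of the endolysosomal pair Ctss and Ifi30 only Ifi30 could be followed. The comparison addressed whether the endolysosomal route responds to IFNγ in these cells. None of the 29 genes passed the test in either direction, where 1.24% of all named genes were called higher and 0.0245% lower. At such shares, a list of this size could hold no call without differing from other genes. The brightest Ifi30 probe gave a lower mean in IFNγ-treated cells, by 0.23 on the log2 scale, a difference that did not pass the test.

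TC-1/A9 is a single tumour cell line of C57BL/6 background, an MHC class I-deficient derivative of TC-1 cells, so the results describe 1 line in culture. The IFNγ group (3 arrays) was grown with IFNγ for 24 h after a medium change, at 50 U/ml by the labels, whereas the methods of the study give a higher dose for it, so the dose is unsettled. The untreated group (3 arrays) was the same line without the cytokine, and both groups shared strain, medium and array type, Illumina Mouse WG6 bead arrays. RNA from the cells was the input to the arrays, which the study counts as biological triplicates. All levels below are quantile-normalised log2 signals of a probe, which can be set against each other between arrays but not between probes.

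The lysosome is the acidic compartment in which cells break down proteins, glycans and lipids delivered by endocytosis, phagocytosis and autophagy. The vacuolar proton pump acidifies it, luminal hydrolases work at that low pH, heavily glycosylated membrane proteins line it, and transporters and channels export the products. Many of its genes carry a palindromic E-box, CACGTG, near their start, bound by the TFEB and TFE family of transcription factors. In antigen-presenting cells the same proteases, with the thiol reductase encoded by Ifi30, cut and unfold antigens for MHC class II, and IFNγ is known to raise Ifi30 and Ctss in many cell types.

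The E-boxes of the member promoters are shown first because the motif was more frequent in these windows than over all genes, although most member windows lacked it. Promoter windows of 300 bases, 250 before and 50 after the transcription start, came from RefSeq (mouse GRCm38.p6), and 25 of the 29 measured genes matched (Asah1, Atp6v1h, Ctsb and Npc1 did not). The 25 genes had 28 windows. A gene with several was counted once, as holding a motif if any of its windows did, so the shares are of genes. CACGTG, which reads alike on both strands, stood in 10 of 25 members (40.0%), against 2187 of 27025 mouse genes with a window (8.09%). Among other lists, it stood in 5 of 11 regulators of lysosome biogenesis and mTORC1 (45.5%) and 7 of 17 genes of enzyme delivery (41.2%). Other membrane proteins and transporters had it in 5 of 15 (33.3%), other pump subunits in 2 of 7 (28.6%). The cytosolic MHC class I route had it in 2 of 8 and other lysosomal hydrolases in 1 of 13 (7.69%). The member share thus lay within the range of these lists. The extended form TCACGTGA, which contains CACGTG, was added to the search after the windows had been seen. It stood in 5 of 25 members (20.0%), against 1.12% of all genes. In the same other lists it was in 5 of 15 membrane proteins and transporters (33.3%) and 5 of 17 genes of enzyme delivery (29.4%). Pump subunits had it in 1 of 7 (14.3%), the class I route in 1 of 8 (12.5%). Hydrolases had it in 0 of 13 and regulators in 0 of 11. The sequences below, each in the sense of its gene with CACGTG in capitals, are those of Ifi30, of 3 members with the extended form and of Glb1.
Ifi30, chr8:70766844-70766869, minus strand: ccaaaaacttCACGTGaccagacatg
Atp6v1a, chr16:44139375-44139400, minus strand: ttttttaaatCACGTGataggcttaa
Ctsa, chr2:164833751-164833776, plus strand: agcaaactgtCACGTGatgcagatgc
Mcoln1, chr8:3500464-3500489, plus strand: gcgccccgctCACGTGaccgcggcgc
Glb1, chr9:114401020-114401045, plus strand: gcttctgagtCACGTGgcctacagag

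Lamp1, which encodes a major glycoprotein of the lysosomal membrane, had 4 E-boxes in the 71 bases just before its start, more than any other member window, and the stretch is given for that reason.
Lamp1, chr8:13159090-13159160, plus strand: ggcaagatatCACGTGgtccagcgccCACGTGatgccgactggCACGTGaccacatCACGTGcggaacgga
The interferon motifs were rarer than CACGTG in the member windows. TTCNNNGAA, the core of the gamma-activated site, stood in 1 of 25 members (Ctsc, 4.0%), against 9.55% of all genes. GAAANNGAA, the core of the interferon-stimulated response element, stood in 2 of 25 (Ppt1 and Lamp1), or 8.0%, against 9.76%. These counts are too small to compare the shares. In the cytosolic MHC class I route, whose genes are the contrast below, the 2 motifs stood in 0 of 8 and 1 of 8 genes (12.5%). A link between these motifs and the response was not tested. Both strands were searched, and a match to one of these 2 motifs can overlap a match to the other. The Ifi30 window had neither, which says only that these letters are not in it, and its upstream 250 bases are printed below because Ifi30 is the interferon-named member.
Ifi30, chr8:70766664-70766913, minus strand: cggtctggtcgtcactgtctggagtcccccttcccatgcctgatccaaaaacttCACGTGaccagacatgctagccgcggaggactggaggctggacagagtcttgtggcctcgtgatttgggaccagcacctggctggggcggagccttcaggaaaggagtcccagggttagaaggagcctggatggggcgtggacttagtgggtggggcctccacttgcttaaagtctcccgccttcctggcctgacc

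**Figure D1:**
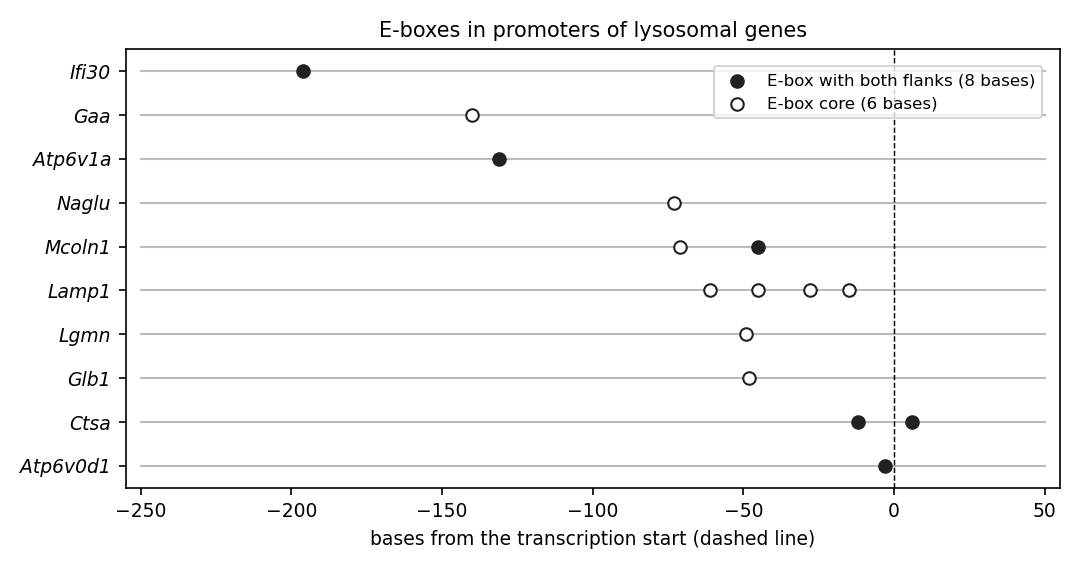
Position of each E-box in the promoters of the 10 lysosomal genes that had one, in bases from the transcription start (x axis, dashed line at the start). Filled circles mark boxes within TCACGTGA and open circles the 6-base core alone. The boxes of Lamp1 lie close together before the start, and that of Ifi30 is the farthest from it, at 196 bases.

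Array quality differed little between groups. Probes detected per array (detection p of 0.01 or less) numbered 12067 to 12423 in the IFNγ group and 11504 to 12404 in the untreated group, and 1 array stood apart: IFNγ replicate 3 correlated with the other IFNγ arrays at r of 0.984 and 0.986 over the tested probes, against 0.995 between those arrays and 0.993 to 0.996 among untreated arrays. The low of 11 of the 29 member genes lay on this array, and the high of 14 on IFNγ replicate 2. Of marker lists for other cells, 3 of 15 macrophage and dendritic cell genes were measured (Aif1, Cd14 and Csf1r, none called), with a summed linear signal of 384 to 462 in IFNγ arrays and 409 to 412 in untreated arrays, while Ptprc and Adgre1 had no probe named here. Of 9 lymphocyte and 8 epithelial genes none was measured, and of 8 mesenchymal genes 3 were (Vim, Fn1 and S100a4, none called), summing to 8992 to 13781 in IFNγ arrays and 8670 to 11370 in untreated arrays. A gene counted as not measured may lack a probe, a name or detection on at least 2 arrays of a group. Cd14, detected on every array, was the brightest of the 3 macrophage genes, with means of 8.13 in IFNγ-treated and 8.03 in untreated cells. Csf1r was detected on 0 IFNγ arrays and 2 untreated arrays.

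In the comparison of IFNγ-treated with untreated cells, 0 of 29 lysosomal genes were higher and 0 were lower at an FDR below 0.01 by limma, where 1.24% of the 8170 named genes were called higher and 0.0245% lower. At an FDR below 0.05 the count was again 0, against 1.59% of named genes. At an unadjusted p below 0.05, 0 members were higher and 1 (Gusb) was lower, against 4.35% and 4.05% of named genes. The changes ran between -0.39 and 0.22, with a median of 0.03, beside -0.02 over all named genes. The member changes were also no wider than those of other genes: their middle 50% lay between -0.06 and 0.10, against -0.12 and 0.09 for all named genes. Standard errors of 0.10 to 0.15 leave 95% intervals that reach, over all 29 genes, down to a 1.58-fold decrease (Gusb) and up to a 1.41-fold increase (Atp6v0d1), and 28 of the 29 include 0. The intervals are ranges of change compatible with these arrays and not limits of detection. That of Gusb, -0.66 to -0.11, excluded 0 and the gene was not called. With 3 arrays per group, true changes of such sizes could have gone uncalled. In bulk RNA, a change in the share of cells that express a gene and a change in RNA per cell cannot be told apart.

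**Figure D2:**
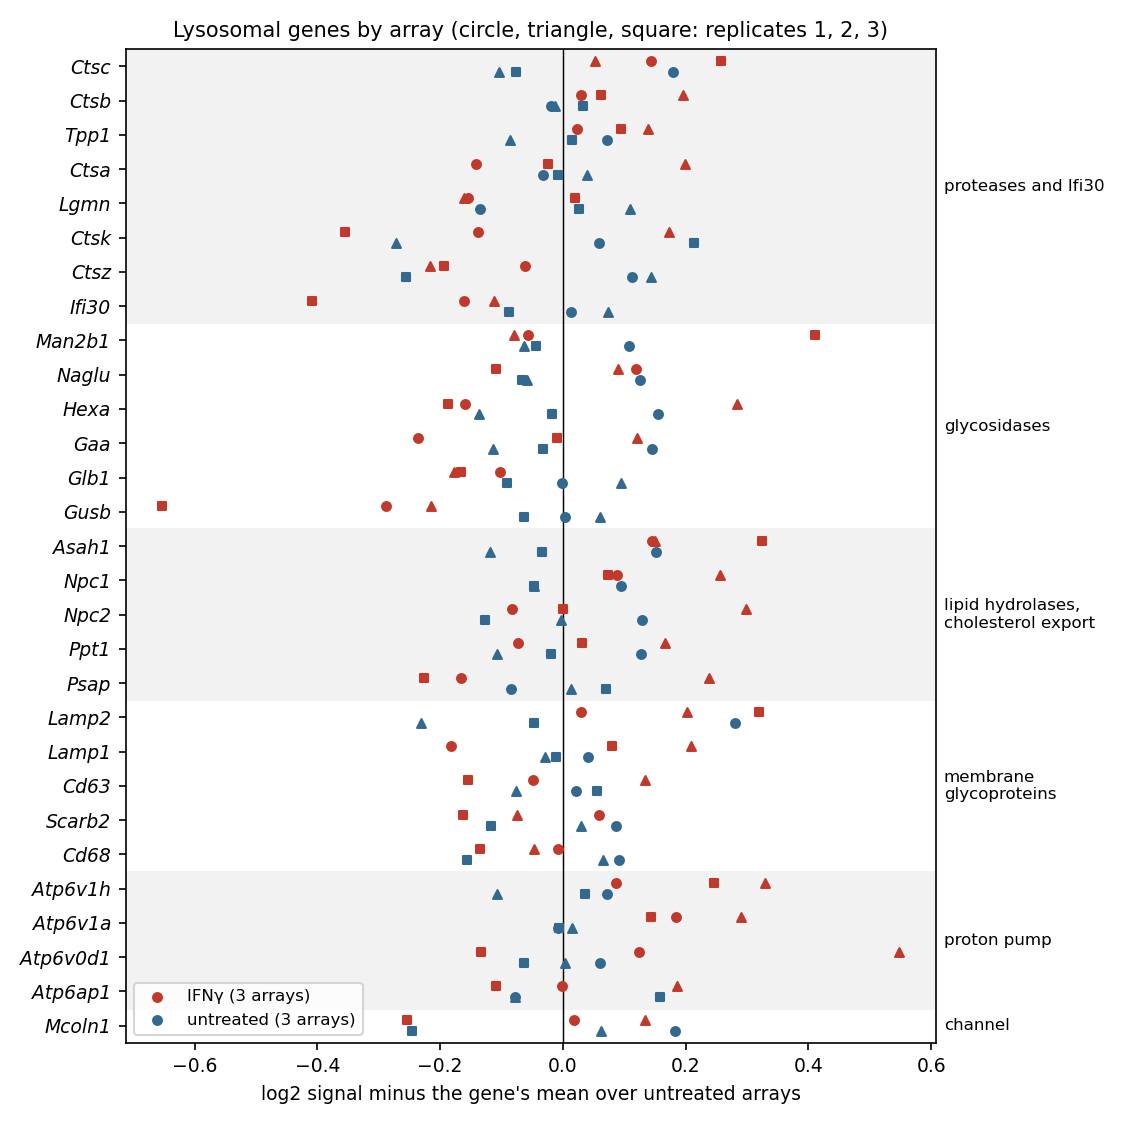
Log2 signal of each measured lysosomal gene on every array, minus that gene's mean over the untreated arrays (x axis), with red for the 3 IFNγ arrays and blue for the 3 untreated arrays, and symbols for the replicates. For 24 of the 29 genes the colours overlap. Gusb, at the left, has all IFNγ arrays below all untreated arrays. Such a gap was upwards for 2 members and downwards for 3, against 6.32% and 7.27% of all named genes.

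Among the proteases and the thiol reductase, 8 of 12 listed genes were measured, 4 with a change above 0 and 4 below, and the median was -0.04. Ifi30, the thiol reductase of the endolysosome, had log2 signals of 7.60, 7.65 and 7.35 in IFNγ-treated cells, against 7.78, 7.84 and 7.68 in untreated cells. Every IFNγ array was thus below every untreated array, as for 7.27% of all named genes. The means were 7.54 ± 0.16 in IFNγ-treated cells and 7.76 ± 0.08 in untreated cells (SD, n = 3 each), a change of -0.23 (SE 0.11, 95% interval -0.47 to 0.02, limma adjusted p = 0.665). With all arrays in the fit, the interval therefore leaves room for almost no increase on this probe. A second Ifi30 probe had 7.51, 7.81 and 7.17 in IFNγ-treated cells, against 7.51, 7.39 and 7.69 in untreated cells. There the groups overlapped (change -0.03, SE 0.15, limma adjusted p = 0.968), and the 95% interval of -0.36 to 0.29 leaves room for an increase. Without IFNγ replicate 3, the lowest array on both probes, the change on the first was -0.14.

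The other proteases overlapped between the groups on their brightest probes. Ctsc, the dipeptidyl peptidase that activates granule serine proteases, had 8.48, 8.39 and 8.59 in IFNγ-treated cells, against 8.52, 8.23 and 8.26 in untreated cells (change 0.15, SE 0.12, limma adjusted p = 0.771). Here untreated replicate 1 lay with the IFNγ arrays. A dimmer Ctsc probe had 7.32, 7.45 and 7.68 in IFNγ-treated cells, against 7.28, 7.18 and 7.29 in untreated cells, without overlap but short of the test (change 0.23, adjusted p = 0.665). The dimmest of the 3 Ctsc probes, detected on 1 IFNγ array and 2 untreated arrays, overlapped between the groups (change 0.01, adjusted p = 0.994). Ctsb, a broad cysteine protease, had little scatter, with 11.12, 11.29 and 11.15 in IFNγ-treated cells and 11.07, 11.08 and 11.12 in untreated cells (change 0.10, 95% interval -0.13 to 0.32). Ctsk, a collagen-degrading cathepsin best known from osteoclasts, was the most scattered of the group, at 6.83, 7.15 and 6.62 in IFNγ-treated cells and 7.03, 6.70 and 7.19 in untreated cells. The changes of the remaining proteases were -0.16 for the carboxypeptidase Ctsz (-0.29 without untreated replicate 3, -0.086 without untreated replicate 2 and -0.0056 with array weights), -0.10 for the asparaginyl endopeptidase Lgmn, 0.01 for the serine carboxypeptidase Ctsa and 0.09 for the tripeptidyl peptidase Tpp1.

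Glycosidases gave the member with the lowest p. Gusb, which encodes beta-glucuronidase, had 9.86, 9.93 and 9.49 in IFNγ-treated cells, against 10.15, 10.21 and 10.08 in untreated cells. All 3 IFNγ arrays lay below the untreated ones, and IFNγ replicate 3 was the farthest. The means were 9.76 ± 0.23 in IFNγ-treated cells and 10.15 ± 0.06 in untreated cells (SD, n = 3 each), a change of -0.39 (SE 0.13, 95% interval -0.66 to -0.11), with an unadjusted p of 0.00874 and an adjusted p of 0.319 by limma. Its other probes did not show it: they had changes of 0.07 (adjusted p = 0.920) and -0.06 (adjusted p = 0.935), with the groups overlapping on both. The mean of the 3 Gusb probes changed by -0.12, and the brightest alone by -0.25 without IFNγ replicate 3.

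Glb1, acid beta-galactosidase, was the other glycosidase without overlap, at 8.59, 8.51 and 8.52 in IFNγ-treated cells and 8.69, 8.78 and 8.60 in untreated cells (change -0.15, SE 0.11, limma adjusted p = 0.757). The gap between the groups was small, since the highest IFNγ array and the lowest untreated array differed by less than the SD of either group. Man2b1, lysosomal alpha-mannosidase, was set by 1 array, with 9.34, 9.31 and 9.81 in IFNγ-treated cells against 9.50, 9.33 and 9.35 in untreated cells (change 0.09; -0.07 without IFNγ replicate 3). Hexa, a subunit of beta-hexosaminidase, Gaa, which degrades glycogen, and Naglu, which acts on heparan sulphate, had changes of -0.02, -0.04 and 0.03. Naglu was close to the detection limit, being detected on 2 IFNγ arrays and 1 untreated array.

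Of the lipid hydrolases, their activators and the cholesterol exporters, 5 of 6 listed genes were measured, and the median change was 0.07. Asah1, acid ceramidase, had 11.87, 11.88 and 12.05 in IFNγ-treated cells, against 11.88, 11.61 and 11.70 in untreated cells (change 0.21, SE 0.11, limma adjusted p = 0.689). Untreated replicate 1 fell among the IFNγ arrays, as it did for Ctsc. Npc1, the membrane transporter that exports cholesterol, had 10.10, 10.27 and 10.09 in IFNγ-treated cells and 10.11, 9.97 and 9.97 in untreated cells (change 0.14). Npc2, the soluble protein that hands cholesterol to it, had 7.15, 7.53 and 7.23 in IFNγ-treated cells and 7.36, 7.23 and 7.10 in untreated cells (change 0.07). Both overlapped between the groups. Ppt1, a thioesterase that strips palmitate from proteins, and Psap, the precursor of the saposins, had changes of 0.04 and -0.05.

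The membrane glycoproteins, 5 of 5 listed genes, had a median change of -0.02. Lamp1 had 12.71, 13.10 and 12.97 in IFNγ-treated cells, against 12.94, 12.87 and 12.88 in untreated cells, with the IFNγ arrays on both sides of the untreated ones. Its change was 0.04 (95% interval -0.22 to 0.29), and it was -0.10 with arrays centred on the 75th percentile and -0.06 with array weights. Lamp2, which also takes part in chaperone-mediated autophagy, had 11.26, 11.43 and 11.55 in IFNγ-treated cells and 11.51, 10.997 and 11.18 in untreated cells (change 0.18, SE 0.14, limma adjusted p = 0.767). The Lamp2 change was 0.32 without untreated replicate 1 and 0.068 without untreated replicate 2, and the 4 Lamp2 probes did not share a sign. Cd63, a tetraspanin of late endosomes, and Scarb2, the receptor that carries beta-glucocerebrosidase to lysosomes, had changes of -0.02 and -0.06. Cd68, best known from macrophages, was detected on 3 IFNγ arrays and 2 untreated arrays and had a change of -0.06.

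Among the member groups, the proton pump had the highest median change, 0.19, over 4 of 4 listed genes. All 4 changes were above 0, although Atp6ap1 lay below 0 with arrays centred on the 75th percentile (-0.08) and with array weights (-0.03). For 12 other subunits of the same pump the median was 0.00, with 7 changes above 0 and 5 below. Both members with every IFNγ array above every untreated array were subunits of its soluble part, and across named genes 6.32% had such a gap upwards and 7.27% one downwards (2 and 3 of the 29 members). Atp6v1h had 10.76, 11.01 and 10.92 in IFNγ-treated cells, against 10.75, 10.57 and 10.71 in untreated cells (change 0.22, SE 0.11, 95% interval -0.02 to 0.46, limma adjusted p = 0.665). The lowest IFNγ array thus lay just above the highest untreated one. Atp6v1a, the catalytic subunit, had 6.32, 6.43 and 6.28 in IFNγ-treated cells, against 6.13, 6.16 and 6.13 in untreated cells (change 0.21, SE 0.10, adjusted p = 0.665), but its probe was dim, detected on 3 IFNγ arrays and only 1 untreated array. Atp6v0d1, of the membrane-bound part, was carried by IFNγ replicate 2, with 10.88, 11.30 and 10.62 in IFNγ-treated cells and 10.81, 10.76 and 10.69 in untreated cells (change 0.18, SE 0.15; -0.0048 without that array). Atp6ap1, an accessory subunit, had a change of 0.03. Mcoln1, the calcium channel of the lysosomal membrane, had 7.02, 7.13 and 6.74 in IFNγ-treated cells and 7.18, 7.06 and 6.75 in untreated cells, a change of -0.03, with replicate 3 lowest in both groups.

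**Figure D3:**
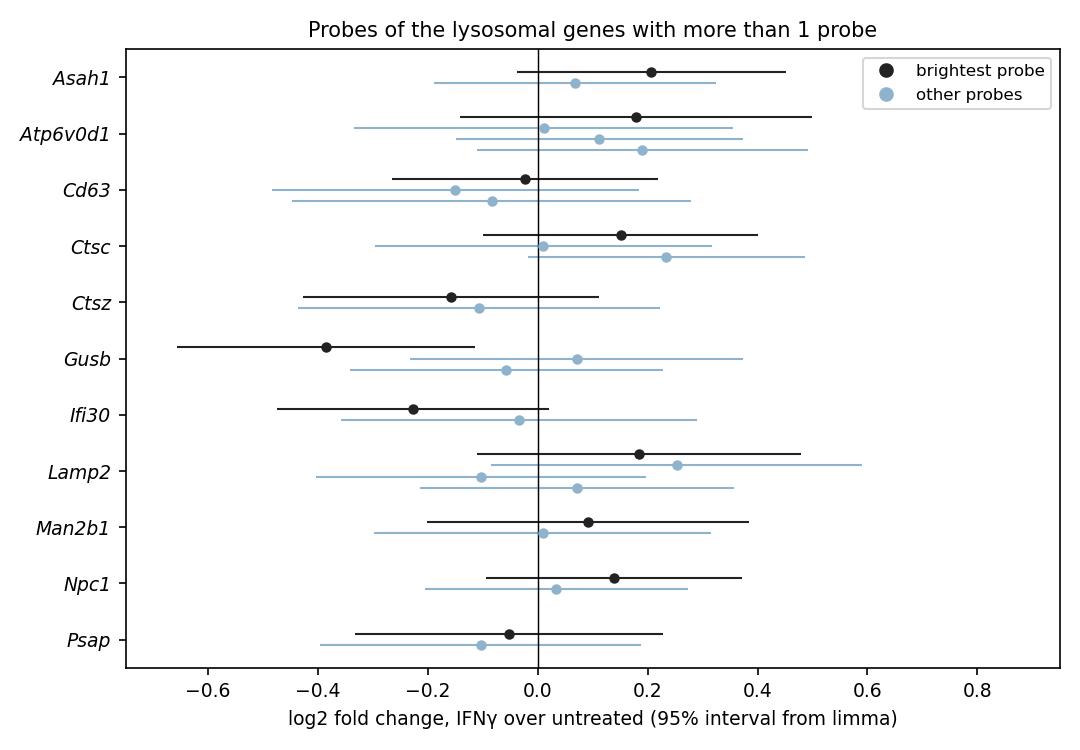
Log2 fold change of IFNγ over untreated (x axis, limma estimate with 95% interval) for each probe of the 11 lysosomal genes that had several, the brightest in black and the others in blue. For 9 of the 11 genes all probes have the same sign; Gusb and Lamp2 have probes on both sides of 0.

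Over the 47 probes that name a member, 0 were called higher and 0 lower, against 1.04% and 0.0148% of all tested probes. Their changes lay between -0.39 and 0.25, and the lowest adjusted p among them was 0.319 (limma). The spread between replicate arrays was larger in IFNγ-treated cells for 20 of 29 genes, with a median SD of 0.146 there and 0.105 in untreated cells. That group held IFNγ replicate 3, the array that stood apart, on which the low of 11 members lay. No such count over all genes is set beside it, so it is not read as a trait of the lysosomal genes. The E-box did not separate the members by their change: the 10 with CACGTG had a median of -0.01 and the 15 without it -0.02, a description without a test.

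Other genes of the lysosomal system were not called either. None of 16 other lysosomal hydrolases, 18 other membrane proteins and transporters, 12 other proton pump subunits, 22 genes of enzyme delivery and 13 regulators of lysosome biogenesis and mTORC1 passed the test in either direction (0 higher, 0 lower in each), and the medians of the lists were 0.00, 0.10, 0.00, 0.09 and 0.07. By their brightest genes, the phospholipase Pla2g15 changed by 0.03 and Glmp by -0.01 on the log2 scale, neither past the test. The transmembrane proteins Laptm4a and Cd164 gave 0.20 and 0.28, the pump subunits Atp6ap2 and Atp6v1e1 0.14 and 0.00029. For the retromer subunit Vps35 and the late endosomal GTPase Rab7 the values were 0.29 and 0.25, and for Tsc2 and Rragc, which act on mTORC1, 0.14 and 0.15. The cysteine protease inhibitors Cstb and Cst3, which can restrain cathepsins, were measured at -0.27 (limma adjusted p = 0.664) and -0.16 (adjusted p = 0.808). Of 11 genes of the MHC class II route, which the lysosomal proteases serve, 1 was measured, H2-Eb2, detected on 2 IFNγ arrays and 0 untreated arrays, and its IFNγ mean was below the lowest signal detected on the arrays, so no fold is given.

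The cytosolic MHC class I route, which cuts antigens by the proteasome and not by cathepsins, served as the contrast in the same arrays. Of its 11 measured genes 8 were higher in IFNγ-treated cells and 0 lower, with a median change of 1.21, against 0.03 for the lysosomal genes. Among those 8, Psmb8, Psmb9, Tap1 and Tapbpl were detected on 0 untreated arrays and Tap2 on 1. They were named only through the IFNγ group, where they were high, and the count and the median include them. Of the genes detected on all 6 arrays, Psmb10, Psme1 and Tapbp were called, and Psme2, Pdia3 and Calr were not. Psmb10, an immunoproteasome subunit, averaged 12.36 ± 0.20 in IFNγ-treated cells and 9.93 ± 0.07 in untreated cells (SD, n = 3 each), a change of 2.43 (SE 0.12, limma adjusted p = 1.45e-08). Tap2, a subunit of the peptide transporter, averaged 8.72 ± 0.14 in IFNγ-treated cells and 6.13 ± 0.12 in untreated cells (fitted change 2.60, adjusted p = 5.60e-09), but it was detected on only 1 untreated array and its mean there lay below 6.14, the mean of the lowest detected signals of the untreated arrays, so the size of its change is uncertain. The partner subunit Tap1 and the tapasin-related Tapbpl were not detected on any untreated array. Taking that floor as their level in untreated cells, they were at least 3.74-fold and 3.48-fold higher in IFNγ-treated cells. These bounds were not tested, and the limma adjusted p-values, 5.68e-09 and 4.32e-08, belong to the fitted changes of 2.34 and 1.98. No interval of a lysosomal gene reached any of these changes.

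**Figure D4:**
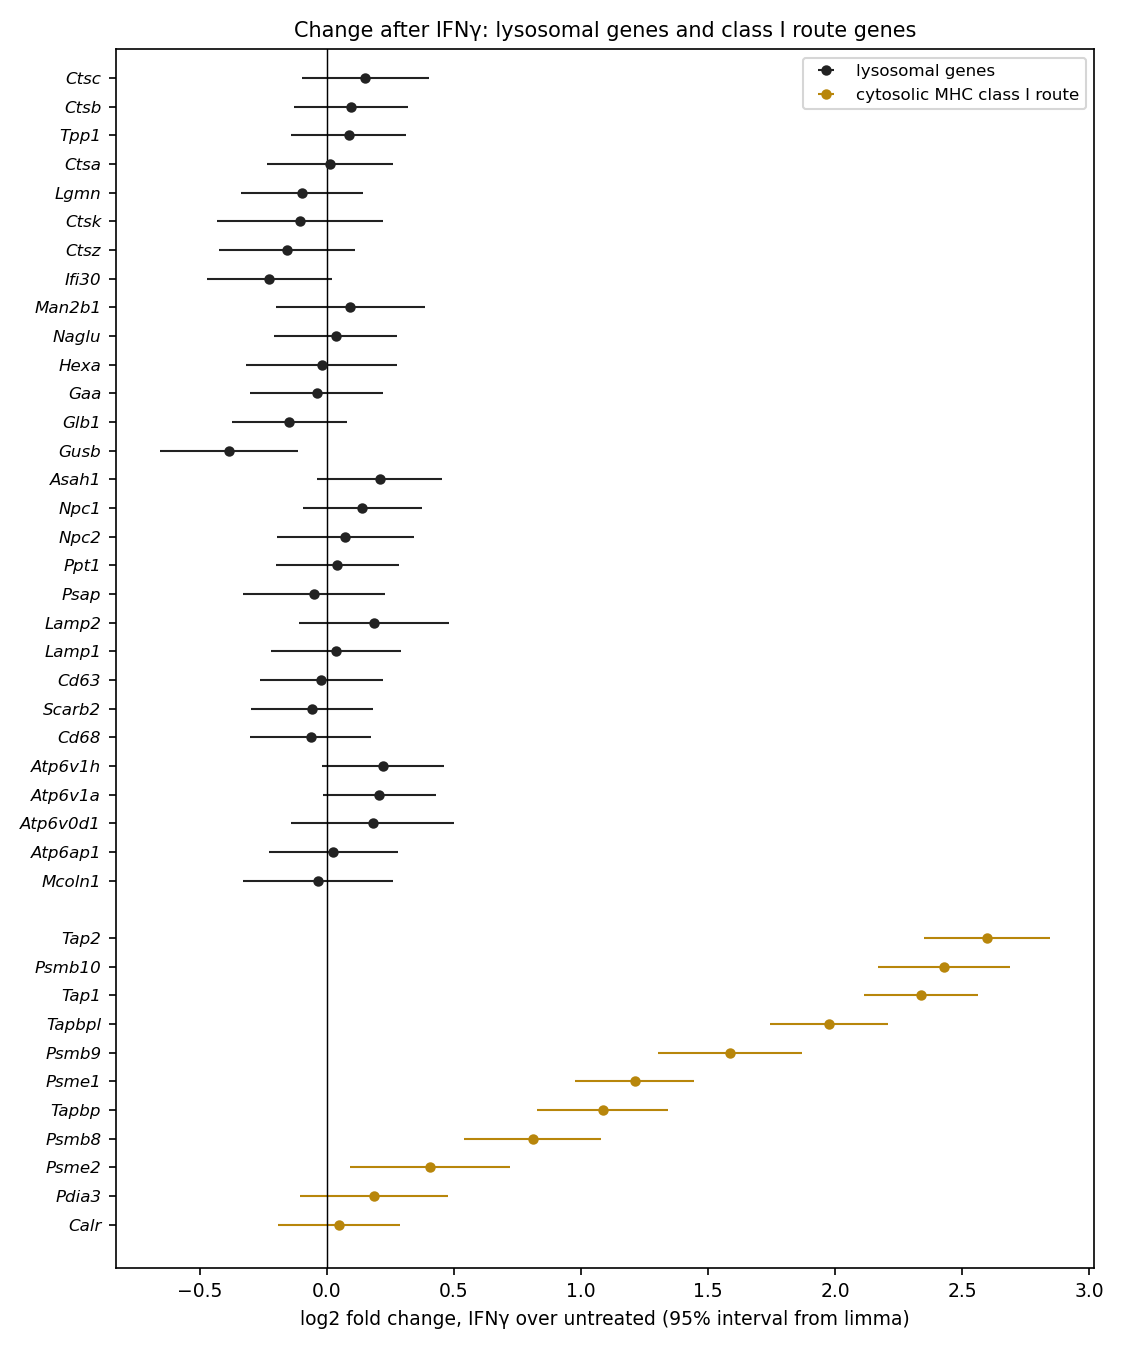
Log2 fold change of IFNγ over untreated (x axis, limma estimate with 95% interval, 3 arrays per group) for the 29 lysosomal genes, in black, and the 11 measured genes of the cytosolic MHC class I route, in ochre. The lysosomal genes lie between -0.39 and 0.22, whereas 8 of the 11 class I route genes were called higher. Of those 8, Psmb8, Psmb9, Tap1, Tap2 and Tapbpl were named only through their detection on IFNγ arrays. The points of genes not detected in untreated cells are fitted values and not bounds.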

How the data were processed

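RNA of 3 IFNγ-treated and 3 untreated TC-1/A9 cultures was measured on bead arrays. The authors exported from BeadStudio, per probe, an intensity on a linear scale, not normalised between arrays, and deposited with it a detection p-value. The deposited value table is on the log2 scale and holds 12421 probes. It differs from the log2 of the intensities, quantile normalised over 45281 probes, by at most 4.97e-14. Its probes were those with a detection p of 0.01 or less on at least 2 arrays of a group. The sources used here do not say whether background was subtracted.

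Here, log2 intensities were quantile normalised over all probes, and the 13545 probes with a detection p of 0.01 or less on at least 1 array were tested with limma 3.58.1 (lmFit, eBayes) in R 4.3.3, with Benjamini-Hochberg adjustment over them and an FDR below 0.01. Gene symbols came from the platform annotation (11180 probes with a name), so probes outside the value table were tested but not named. A gene not measured here may thus lack a probe, a name or detection. The fit was tested on simulated data. The text names every measured member and, of each other list, up to 4 called genes with the largest change, or the 2 brightest. The members and lists were chosen with earlier results of these data known. The alternatives were other background, scaling, filter, weighting and blocking choices and leaving out each array. The number of arrays limits the precision.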

Additional observations from a re-analysis of the deposited data

How the results depend on the processing

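Under all 17 alternatives 0 lysosomal genes were called higher and 0 lower, and the lowest member adjusted p was 0.116, with array weights (limma). Ctss could not be followed because it had no probe named here. The Ifi30 change stayed between -0.28 and -0.13 (adjusted p 0.448 to 0.996), and that of Gusb between -0.48 and -0.12 (0.116 to 0.945). Small changes reversed sign. With arrays centred on the 75th percentile they were -0.015 (Ctsa), -0.0037 (Ppt1), -0.10 (Lamp1) and -0.082 (Atp6ap1). With array weights they were -0.050 (Ctsa), -0.0067 (Man2b1), -0.062 (Lamp1), 0.039 (Cd68), 0.062 (Scarb2), -0.027 (Atp6ap1) and 0.13 (Mcoln1). Leaving out 1 array gave -0.083 to 0.088 for Ctsa, -0.12 to 0.056 for Gaa, -0.17 to 0.062 for Hexa, -0.055 to 0.10 for Atp6ap1, -0.16 to 0.076 for Mcoln1, -0.021 to 0.10 for Ppt1, -0.25 to 0.017 for Ctsk, -0.10 to 0.043 for Cd63, -0.0093 to 0.10 for Naglu, -0.20 to 0.036 for Psap, -0.041 to 0.15 for Npc2, -0.052 to 0.14 for Lamp1, -0.0048 to 0.34 for Atp6v0d1 and -0.068 to 0.18 for Man2b1. The causes were not tested.

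Over all tested probes, 141 were called higher and 2 lower. The count of lower calls was 1 with a normexp offset of 16, 0 with 75th percentile centring, 1 for probes detected on all 6 arrays, 1 with trended robust eBayes, 35 with array weights and 7 at an FDR below 0.05. The count of higher calls was 78 with 75th percentile centring, 74 for probes detected on all 6 arrays (fewer probes tested) and 248 with array weights. Leaving out 1 array gave 83 (untreated replicate 3) to 172 (IFNγ replicate 3) higher and 0 to 6 lower. Of the class I route, 8 of 11 genes were called, and 3 of 6 where only probes detected on all 6 arrays were tested. The count was 9 with array weights and without IFNγ replicate 3. It was 7 with 75th percentile centring and without IFNγ replicate 1 or any 1 untreated array, the settings in which Psmb8 lost its call (5 alternatives, adjusted p up to 0.0313). With replicate number as a block, 0 members were called and 145 probes were higher and 3 lower. Same-numbered arrays did not clearly deviate together (correlations -0.19, 0.04 and -0.02). With 3 arrays per group this cannot settle whether the numbers pair them, and the labels do not say.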

Other observations

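Some further lysosomal genes, chosen here after their values were seen, had the largest changes of their lists, and none passed the test. Tpcn2, an endolysosomal cation channel, changed by 0.52 on the log2 scale in IFNγ-treated against untreated cells (limma adjusted p = 0.220). Fnip1, a partner of folliculin in mTORC1 signalling, changed by 0.48 (adjusted p = 0.472), Dnase2a, the acid DNase, by -0.34 (adjusted p = 0.416), and the transmembrane protein Tmem9 by -0.32 (adjusted p = 0.558). Each was smaller without IFNγ replicate 3, the array that stood apart: 0.32 for Tpcn2, 0.34 for Fnip1, -0.23 for Dnase2a and -0.20 for Tmem9. Each was larger without IFNγ replicate 1: 0.69 for Tpcn2 (limma adjusted p = 0.0395), 0.64 for Fnip1, -0.40 for Dnase2a and -0.44 for Tmem9. Leaving out untreated replicate 1 gave 0.68 for Fnip1.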
